A study of Mus musculus with 10 samples.

Results

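The 9 genes Vsig4, Clec4f, Cd5l, Folr2, Adgre1, Fcna, Marco, Cd163 and Cd68, known for their expression in Kupffer cells, were followed across the livers of Tgfbr2 heterozygous and wild-type mice. They are read by 10 probes of the array, 2 for Vsig4 and 1 for each of the others, and make up 9 of the 16383 genes measured. They were chosen by name, with it already known that 6 of them were higher in heterozygous liver and that Marco, Cd163 and Cd68 were not, so their differences between the groups are described here and carry no p-value. The tested livers came from 6 Tgfbr2+/- mice, titled as males, with 1 copy of Tgfbr2 inactivated, which encodes the type II TGF-beta receptor. The control livers came from 4 wild-type (WT) littermates, whose titles state no sex. All mice were on a chow diet. Age, strain and the design of the Tgfbr2 allele are not given in the sources used here. Whole-liver total RNA of each mouse was hybridised on a 2-colour array against 1 pool of liver RNA from 6 WT mice, and every value below is a log2 ratio of the liver over that pool, averaged over the probes of a gene. A ratio says nothing of how abundant a transcript was, so levels of different genes cannot be compared, and in whole liver fewer cells of a type and less RNA per cell cannot be told apart.

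Kupffer cells are the resident macrophages of the liver sinusoids. They clear bacteria, complement-coated particles, worn red cells and free haemoglobin from portal blood, and their identity is known to depend on signals from the neighbouring sinusoidal endothelial, stellate and liver parenchymal cells, among them ligands of the TGF-beta family. Vsig4, Clec4f, Folr2 and Adgre1 encode surface receptors, Cd5l and Fcna encode secreted proteins, Marco and Cd163 encode scavenger receptors, and Cd68 encodes a lysosomal membrane glycoprotein found in macrophages at large.

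Macrophage promoters often carry purine-rich sites for PU.1, an ETS factor that myeloid cells require, so RefSeq promoters (build GRCm38.p6, 250 bases before to 50 bases after the start) of the members were searched on both strands. The table held promoters of 8 of the 9 genes, Adgre1 being the one not matched, with 2 for Folr2. The letters GAGGAA, the core of the longer PU.1 motif GAGGAAGT, occurred in 5 of the 8, namely Vsig4, Cd5l and Fcna, which were higher in heterozygous liver, and Marco and Cd68, which were not. The share of all 32851 promoters with these letters was 28.3%. GAGGAAGT occurred in none of the 8 and in 3.2% of all promoters, and the E-box CACGTG in none of the 8 and in 7.15%. The letters TGCTGAC, part of the MARE motif of Maf factors, occurred in Fcna alone and in 4.67% of all promoters, and the nuclear receptor motif AGGTCA in Clec4f alone and in 16.3%. The 5 promoters with the core are shown because both kinds of member carry it. They are written 5′ to 3′ along the gene's strand, with capitals marking GAGGAA or, on the other strand, TTCCTC.
Vsig4 (chrX:96293389-96293688, minus strand): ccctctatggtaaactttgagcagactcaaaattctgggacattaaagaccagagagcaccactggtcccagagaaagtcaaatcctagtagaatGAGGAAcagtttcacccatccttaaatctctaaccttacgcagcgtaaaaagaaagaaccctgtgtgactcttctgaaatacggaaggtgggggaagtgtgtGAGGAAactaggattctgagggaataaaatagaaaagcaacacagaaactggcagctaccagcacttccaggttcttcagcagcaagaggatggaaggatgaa
Cd5l (chr3:87357631-87357930, plus strand): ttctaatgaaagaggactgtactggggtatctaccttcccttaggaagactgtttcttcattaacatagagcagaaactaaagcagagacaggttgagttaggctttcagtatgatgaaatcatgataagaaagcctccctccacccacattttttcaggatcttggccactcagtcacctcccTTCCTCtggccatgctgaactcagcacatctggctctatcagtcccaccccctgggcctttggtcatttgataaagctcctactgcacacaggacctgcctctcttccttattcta
Fcna (chr2:25627925-25628224, minus strand): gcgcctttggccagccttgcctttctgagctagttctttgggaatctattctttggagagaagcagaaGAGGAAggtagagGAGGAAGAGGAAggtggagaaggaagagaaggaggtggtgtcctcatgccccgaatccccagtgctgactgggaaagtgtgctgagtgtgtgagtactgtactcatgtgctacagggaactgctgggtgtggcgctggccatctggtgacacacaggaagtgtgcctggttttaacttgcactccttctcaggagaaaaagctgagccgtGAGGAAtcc
Marco (chr1:120504975-120505274, minus strand): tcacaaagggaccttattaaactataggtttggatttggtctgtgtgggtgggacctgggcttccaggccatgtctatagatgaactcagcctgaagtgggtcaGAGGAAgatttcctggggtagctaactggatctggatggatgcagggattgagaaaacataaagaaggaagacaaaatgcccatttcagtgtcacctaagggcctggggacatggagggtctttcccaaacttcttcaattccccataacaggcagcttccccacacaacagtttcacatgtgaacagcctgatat
Cd68 (chr11:69666121-69666420, minus strand): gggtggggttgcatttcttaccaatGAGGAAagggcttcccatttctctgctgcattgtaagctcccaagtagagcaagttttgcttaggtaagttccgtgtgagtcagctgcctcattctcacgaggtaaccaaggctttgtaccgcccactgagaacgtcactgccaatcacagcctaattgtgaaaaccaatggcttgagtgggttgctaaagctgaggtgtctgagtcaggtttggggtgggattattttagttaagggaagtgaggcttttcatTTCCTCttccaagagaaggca
Fcna held 4 copies of the core, Vsig4 and Cd68 held 2 each, and Marco and Cd5l held 1 each.

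Tgfbr2 itself was the first check of the labels. On probe 10024401828 it was at -0.82, -1.11, -1.04, 0.20, -0.86 and -0.60 in Tgfbr2+/- replicates 1 to 6, against 0.42, 0.64, -0.29 and -0.07 in WT replicates 1 to 4. On this probe the values of the library labelled Tgfbr2+/- replicate 4 fell among those of WT, which goes against the label. Heterozygous liver is used below for all 6 libraries so labelled, this one included. On probe 10024408236 the library labelled Tgfbr2+/- replicate 4 was at -0.10, below all WT livers, which lay at 0.04 to 0.23. Replicates 1 and 5 were also below them there, at -0.03 and -0.12. Replicates 2, 3 and 6 were not, at 0.11, 0.28 and 0.24. The 2 probes thus differed in which livers were low. Between the groups, probe 10024408236 differed by -0.07 ± 0.09 (SE). The direction of the ratio, liver over pool, is likely, because the titles name the pool first and because of this gene, but no label states it; with the opposite direction each higher value here would be a lower one. WT replicate 1 and Tgfbr2+/- replicate 5 correlated at r = -0.32 over all probes, so the direction of neither column was taken as settled. On probe 10024401828 Tgfbr2+/- replicate 5 was low as deposited, at -0.86. Turned in sign it would lie above all WT livers there. A single probe does not settle a column, so the differences of the members are also given below with each of these columns turned in sign. Column medians lay between 0.0043 and 0.016. With limma, 0 of 16383 genes (0.0%) differed between the groups at an adjusted p of 0.05, and 10 did without Tgfbr2+/- replicate 3. At an unadjusted p under 0.05, 487 genes (2.97%) were higher and 421 (2.57%) were lower in heterozygous liver. The median difference of all genes was 0.0044.

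The transcripts of the 4 surface receptors were higher in every liver labelled Tgfbr2+/- than in every WT liver. Vsig4, the complement receptor CRIg that captures C3b-coated particles, was at 0.45, 0.40, 0.15, 0.14, 0.14 and 0.22 in Tgfbr2+/- replicates 1 to 6, against -0.28, -0.15, -0.17 and -0.33 in WT replicates 1 to 4. Replicates 1 and 2 stood highest and the other heterozygous livers lay close together, 0.28 or more above the highest WT liver. The difference was 0.48 ± 0.08 (SE), a ratio of 1.40, and both probes showed it, with 0.52 ± 0.07 on probe 10024395615 and 0.45 ± 0.09 on probe 10024416103.

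Clec4f, a C-type lectin that in mouse marks Kupffer cells (probe 10024410007), was at 0.20, 0.03, 0.05, 0.35, 0.29 and 0.20 in Tgfbr2+/- replicates 1 to 6, against -0.36, -0.11, -0.19 and -0.33 in WT replicates 1 to 4. The groups did not overlap, but the heterozygous order was another than that of Vsig4, with the library labelled Tgfbr2+/- replicate 4 highest and replicate 2 lowest. Its difference was 0.43 ± 0.08, a ratio of 1.35. Folr2, the folate receptor beta of tissue macrophages (probe 10024411230), was at 0.44, 0.15, 0.09, 0.29, 0.40 and 0.40 in Tgfbr2+/- replicates 1 to 6, against -0.57, -0.13, -0.29 and -0.26 in WT replicates 1 to 4. WT replicate 1 stood lowest, and the difference of 0.61 ± 0.10, a ratio of 1.53, was 0.52 without it. Adgre1, an adhesion receptor whose protein is the usual surface marker of mouse macrophages (probe 10024398573), was at 0.20, 0.32, 0.06, 0.03, 0.22 and 0.43 in Tgfbr2+/- replicates 1 to 6, against -0.24, -0.42, -0.18 and -0.29 in WT replicates 1 to 4. Its highest heterozygous liver was replicate 6, and its difference was 0.49 ± 0.08, a ratio of 1.41.

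**Figure D1:**
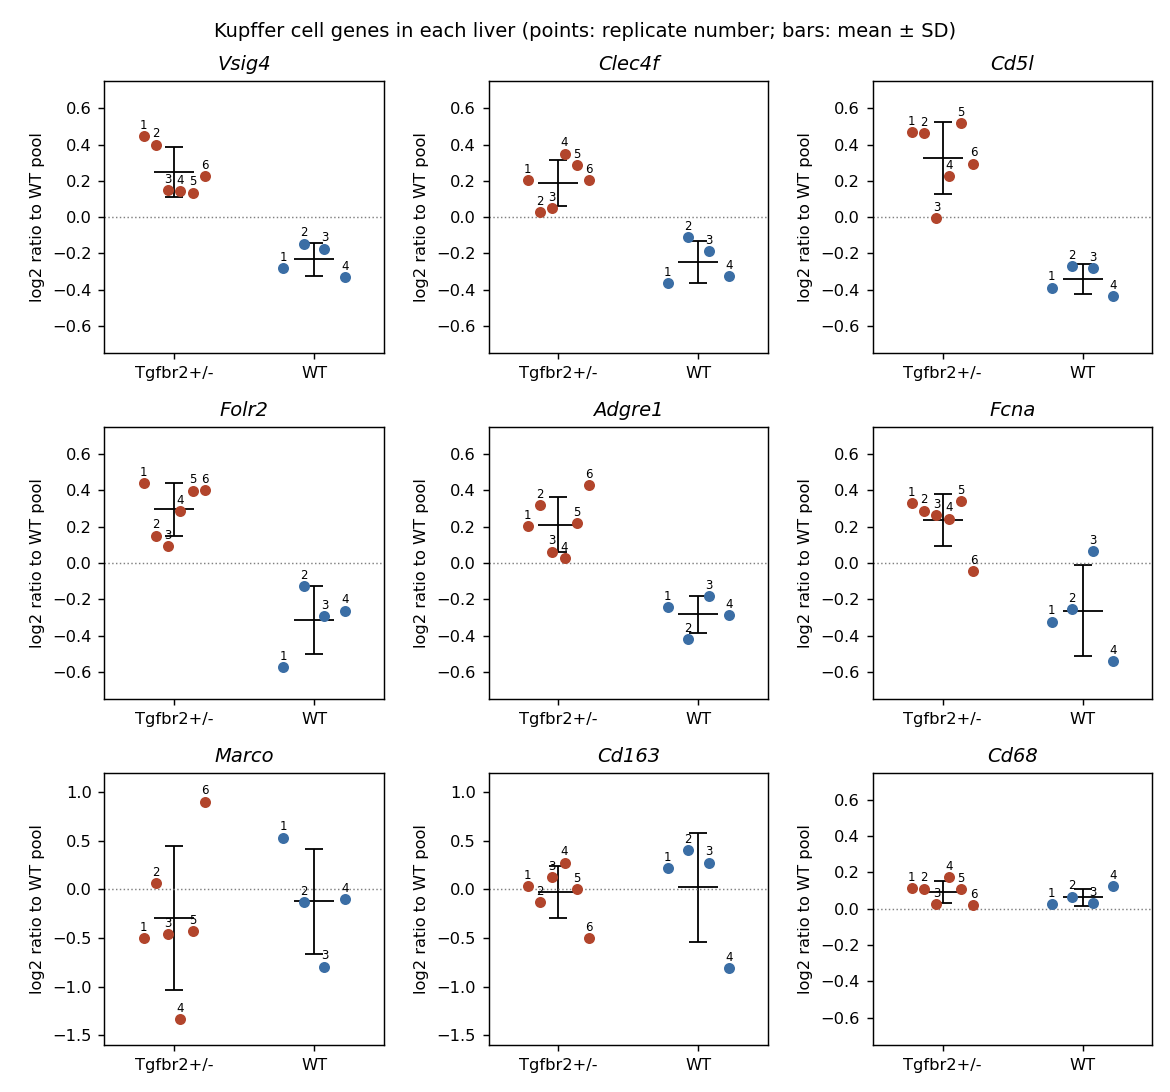
Log2 ratio over the WT pool of each of the 9 genes in each liver, Tgfbr2+/- on the left and WT on the right, numbered by replicate, with mean and SD as bars. The panels of Marco and Cd163 have a wider axis than the others, and the groups do not overlap for Vsig4, Clec4f, Cd5l, Folr2 and Adgre1.

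The transcripts of both secreted proteins were higher in heterozygous liver as well. Cd5l, the apoptosis inhibitor of macrophages that circulates in blood (probe 10024400355), was at 0.47, 0.46, -0.01, 0.23, 0.52 and 0.29 in Tgfbr2+/- replicates 1 to 6, against -0.39, -0.27, -0.28 and -0.43 in WT replicates 1 to 4. Tgfbr2+/- replicate 3 was at the level of the pool and still above all WT livers. The difference, 0.67 ± 0.10 or a ratio of 1.59, was the largest of the 9 genes. Fcna, a ficolin that recognises microbial sugars and starts the lectin pathway of complement (probe 10024403835), was at 0.33, 0.29, 0.27, 0.24, 0.34 and -0.04 in Tgfbr2+/- replicates 1 to 6, against -0.32, -0.25, 0.07 and -0.54 in WT replicates 1 to 4. Here the groups overlapped, since Tgfbr2+/- replicate 6 fell apart from the other 5 and lay below WT replicate 3. The difference was 0.50 ± 0.11, a ratio of 1.41.

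In all, 5 of the 9 genes had every heterozygous liver above every WT liver, as had 119 of all 16383 genes (0.726%). Since the genes were chosen on this contrast, nothing is read from the 2 shares. The mean of the 6 genes was 0.35, 0.27, 0.10, 0.21, 0.32 and 0.25 in Tgfbr2+/- replicates 1 to 6, against -0.36, -0.22, -0.17 and -0.36 in WT replicates 1 to 4. The WT livers thus lay below the pool of WT liver, with 0 of the 6 genes above it in WT replicates 1, 2 and 4 and 1 in WT replicate 3. Each heterozygous liver had 5 or 6 of these genes above the pool. The order of the heterozygous livers differed from gene to gene. The highest heterozygous value belonged to replicate 1 for 2 genes, to replicate 5 for 2, and to the library labelled replicate 4 and to replicate 6 for 1 each. With WT replicate 1 turned in sign, the differences of Vsig4, Clec4f, Cd5l, Folr2, Adgre1 and Fcna were 0.34, 0.25, 0.48, 0.32, 0.37 and 0.34. With Tgfbr2+/- replicate 5 turned they were 0.44, 0.34, 0.50, 0.48, 0.42 and 0.39. Without the library labelled Tgfbr2+/- replicate 4 they were 0.50, 0.40, 0.69, 0.61, 0.53 and 0.50. All 6 stayed positive in each of 17 alternatives, but they were chosen as higher in this contrast. Leaving out a liver could not turn the sign of the 5 genes whose groups did not overlap. The choice of probe could alter Vsig4 alone.

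Marco, Cd163 and Cd68 did not share this pattern, each in its own way. Marco, a class A scavenger receptor that binds bacteria (probe 10024401971), was at -0.50, 0.07, -0.46, -1.34, -0.43 and 0.90 in Tgfbr2+/- replicates 1 to 6, against 0.53, -0.13, -0.80 and -0.10 in WT replicates 1 to 4. The lowest of all 10 values was that of the library labelled Tgfbr2+/- replicate 4 and the highest that of Tgfbr2+/- replicate 6, and the WT livers lay between them. The difference was -0.17 ± 0.37, with a 95% interval of -0.99 to 0.65 that takes in those of 5 of the 6 genes above. Without the library labelled Tgfbr2+/- replicate 4 the difference was 0.04. Its spread within groups, an SD of 0.67, was larger than that of 99.5% of all genes. Marco's difference was -0.41 without Tgfbr2+/- replicate 6, 0.05 without WT replicate 1, and 0.10 and -0.03 with WT replicate 1 and Tgfbr2+/- replicate 5 turned in sign.

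Cd163, the receptor for haptoglobin-bound haemoglobin (probe 10024402436), was at 0.03, -0.13, 0.13, 0.27, 0.00 and -0.51 in Tgfbr2+/- replicates 1 to 6, against 0.21, 0.40, 0.28 and -0.81 in WT replicates 1 to 4. In each group 1 liver stood low, Tgfbr2+/- replicate 6 and WT replicate 4, and the heterozygous livers all lay within the WT range. The difference was -0.05 ± 0.22 with a 95% interval of -0.55 to 0.44, and -0.33 without WT replicate 4. The interval takes in the difference of Clec4f and lies below those of the other 5. Cd163 too varied widely, with a within-group SD of 0.40, larger than that of 98.2% of genes.

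Cd68 (probe 10024413843) hardly varied at all. It was at 0.11, 0.11, 0.02, 0.17, 0.11 and 0.02 in Tgfbr2+/- replicates 1 to 6, against 0.03, 0.07, 0.03 and 0.13 in WT replicates 1 to 4. All 10 livers were slightly above the pool, and the groups overlapped. Its difference of 0.03 ± 0.04 had a 95% interval of -0.07 to 0.13, which takes in none of the 6, and its within-group SD of 0.05 was larger than that of only 8.63% of genes. The data therefore bound the difference in probe ratio closely for Cd68, and loosely for Cd163 and above all Marco. Each of these genes rests on 1 probe without intensities, so whether its signal lay above background is not known. A narrow interval for the Cd68 probe thus need not bound its transcript.

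**Figure D2:**
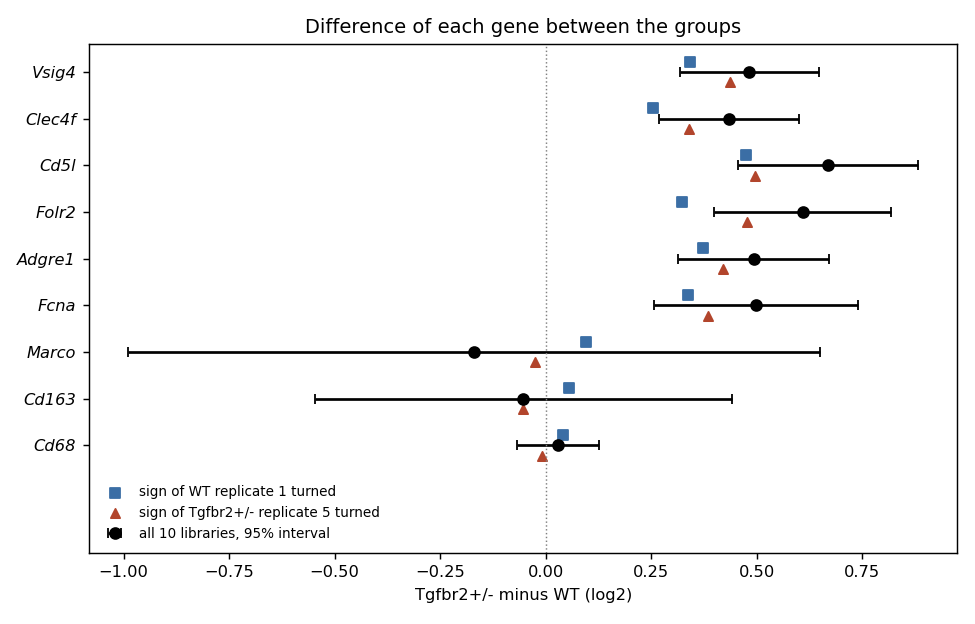
Difference of each gene, Tgfbr2+/- minus WT on the log2 scale, with its 95% interval from limma as a black bar, and the difference after turning the sign of WT replicate 1 (squares) or Tgfbr2+/- replicate 5 (triangles). The first 6 genes lie between 0.43 and 0.67, and the intervals of Marco, Cd163 and Cd68 include 0.

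Whether the genes vary together among the 6 livers labelled Tgfbr2+/- does not rest on the difference between the groups, and was tested for all 36 pairs by exact permutation (two-sided, 720 orders, smallest possible p 0.00139). The 15 pairs among the 6 genes higher in heterozygous liver had r from -0.57 to 0.69 with a median of 0.22, and the lowest p adjusted over the 36 pairs was 0.782. With Tgfbr2+/- replicate 5, whose direction is not settled, turned in sign, all 15 were positive, from 0.45 to 0.95 with a median of 0.78, and the lowest adjusted p was 0.15 (exact permutation). That liver then lies below the pool for all 6 genes. A single liver set low for all 6 genes raises each r by itself, so the turned values do not show a shared order. Without that liver its sign does not matter, and r ran from -0.62 for Adgre1 and Fcna to 0.87 for Vsig4 and Cd5l. A lone pair at the smallest possible p has an adjusted p of exactly 0.05 over the 36 pairs, or 0.1 by Spearman's rho. It could therefore not pass under 0.05, and nothing is read from the lack of a pass. With the columns as deposited no pair passed, and 3 had an unadjusted p under 0.05 (exact permutation).

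These 3 pairs join Adgre1, Marco and Cd163. Adgre1 and Cd163 ran in opposite order over the 6 livers (r = -0.95, exact permutation p = 0.00139, adjusted p = 0.05; rho = -1, p = 0.00278, adjusted p = 0.1). Marco and Cd163 were also opposed (r = -0.97, exact permutation p = 0.00417, adjusted p = 0.075; rho = -0.94, p = 0.0167, adjusted p = 0.2), while Adgre1 and Marco went together (r = 0.92, exact permutation p = 0.00972, adjusted p = 0.117; rho = 0.94, p = 0.0167, adjusted p = 0.2). The library labelled Tgfbr2+/- replicate 4 had the lowest Marco and Adgre1 and the highest Cd163, and Tgfbr2+/- replicate 6 the reverse. Without these 2 livers, which lie farthest from the median of Adgre1 and of Marco, r over the other 4 was -0.98 for Adgre1 and Cd163, -0.87 for Marco and Cd163 and 0.75 for Adgre1 and Marco. Without the library labelled Tgfbr2+/- replicate 4 alone, a check added after the values were seen, they were -0.93, -0.98 and 0.88. With Tgfbr2+/- replicate 5 turned in sign they were -0.67, -0.89 and 0.29. Taken as deviations from the group means over all 10 livers, r was -0.48, -0.48 and 0.65 (exact permutation within groups, adjusted p = 0.63, 0.63 and 0.576), and WT replicate 4, lowest in Cd163, was highest neither in Marco nor in Adgre1. Over the 4 WT livers alone r was -0.08 for Adgre1 and Cd163, -0.07 for Marco and Cd163 and -0.25 for Adgre1 and Marco. All values of a liver share its array and the pool.

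**Figure D3:**
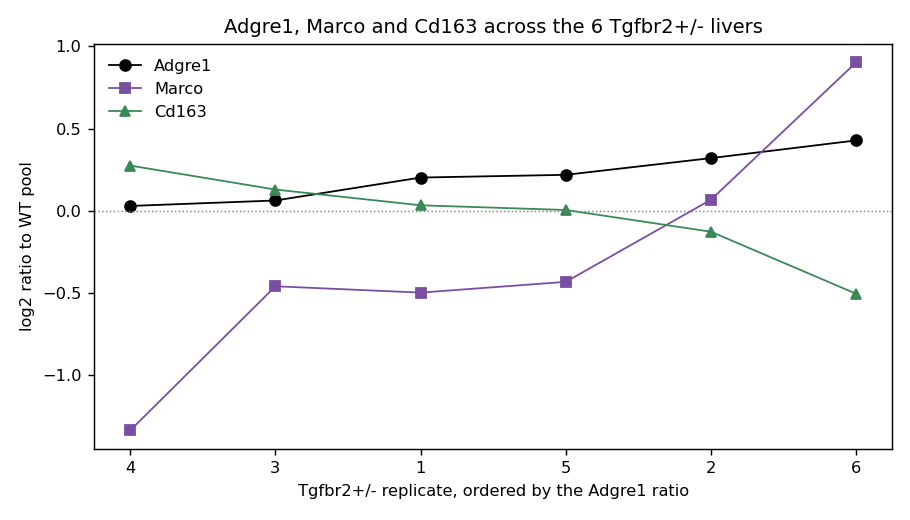
Log2 ratio over the WT pool of Adgre1, Marco and Cd163 in the 6 livers labelled Tgfbr2+/-, ordered along the x axis by Adgre1. Marco is lowest at -1.34 and highest at 0.90 in the livers where Cd163 is highest at 0.27 and lowest at -0.51.

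The genes outside the set whose ratios over the 10 livers were most like the mean of the 6 were Ctss, a lysosomal protease of antigen-presenting cells (r = 0.97), C1qc, a chain of complement C1q (0.96), Il18bp, the decoy receptor of interleukin 18 (0.95), the inhibitory receptor Cd300a (0.93), the adhesion receptor Adgre5 (0.93), the lectin Clec4n (0.92), the Fc receptor Fcgr1 (0.92) and the adaptor Tyrobp (0.92). All 8 are known in myeloid cells, and each was higher in all 6 heterozygous livers than in all 4 WT livers, as were 0.726% of all genes. They were the highest of 16374 correlations, which include the difference between the groups, so their separation of the groups is no separate result. Ctss was at 0.33 ± 0.17 in Tgfbr2+/- and -0.25 ± 0.08 in WT livers (SD, n = 6 and 4). The genes most like Marco were Ppfibp1 (r = 0.91), Dcst1 (0.89) and the red cell membrane gene Epb42 (0.89), those most like Cd163 were the DNA repair nuclease gene Dclre1b (0.95), Adamtsl2 (0.92) and Fra10ac1 (0.92), and those most like Cd68 were the complement C1 inhibitor Serping1 (0.95), Hoxb5os (0.94) and the alcohol dehydrogenase Adh6a (0.94). Marco, Cd163 and Cd68 themselves had r of -0.18, 0.01 and 0.31 with the mean of the 6 genes.

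Other genes known from Kupffer cells were mixed in direction. Of 15 listed, 12 were measured, 8 with a positive difference and a median of 0.05, beside 52.6% positive and a median of 0.0044 over all genes. None passed limma's adjusted p, and 2 were higher at an unadjusted p under 0.05, Il18bp (0.27 ± 0.05, adjusted p = 0.27) and the phagosomal metal transporter Slc11a1 (0.19 ± 0.06, adjusted p = 0.749). The phosphatidylserine receptor Timd4, a marker of embryonically derived Kupffer cells, differed by 0.21 ± 0.17, Clec1b, a lectin of mouse Kupffer cells, by 0.07 ± 0.11 and the lectin Cd207 by 0.60 ± 0.28. Macrophage transcription factors, among them the PU.1 gene Spi1 and the Kupffer cell regulators Nr1h3, Spic and Id3, had 7 of 11 positive and a median of 0.02, with Tfec (0.19 ± 0.05, limma adjusted p = 0.585) the 1 gene at an unadjusted p under 0.05.

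Among 15 measured genes of macrophages and leukocytes at large, 12 were positive with a median of 0.17, and 7 were higher at an unadjusted p under 0.05, beside 2.97% of all genes. None of them passed limma's adjusted p. They included the lysosomal membrane gene Laptm5 (0.39 ± 0.07), the macrophage perforin Mpeg1 (0.32 ± 0.07), the tetraspanin Cd53 (0.43 ± 0.09) and the leukocyte phosphatase CD45, Ptprc (0.44 ± 0.10). Of the lysosomal genes, the group to which Cd68 belongs, 12 of 15 were positive with a median of 0.13 and 5 were higher at an unadjusted p under 0.05, among them Ctss (0.58 ± 0.09), Lgmn (0.31 ± 0.06), Asah1 (0.23 ± 0.06) and Npc2 (0.13 ± 0.06). Scavenger receptors and proteins with SRCR domains, the fold shared by Cd5l, Marco and Cd163, had 7 of 15 positive and a median of -0.01. In that list Lgals3bp (0.26 ± 0.07) and Msr1 (0.23 ± 0.09) were higher at an unadjusted p under 0.05, and no gene passed limma's adjusted p. In the list of haemoglobin and haem clearance, the pathway of Cd163, 7 of 7 were positive with a median of 0.09, Hmox1 being at 0.25 ± 0.10 and Hpx at 0.36 ± 0.15. Complement partners of Vsig4 and Fcna had 6 of 8 positive and a median of 0.04, and folate handling genes 5 of 9 and 0.01, with no gene of either at an unadjusted p under 0.05.

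**Figure D4:**
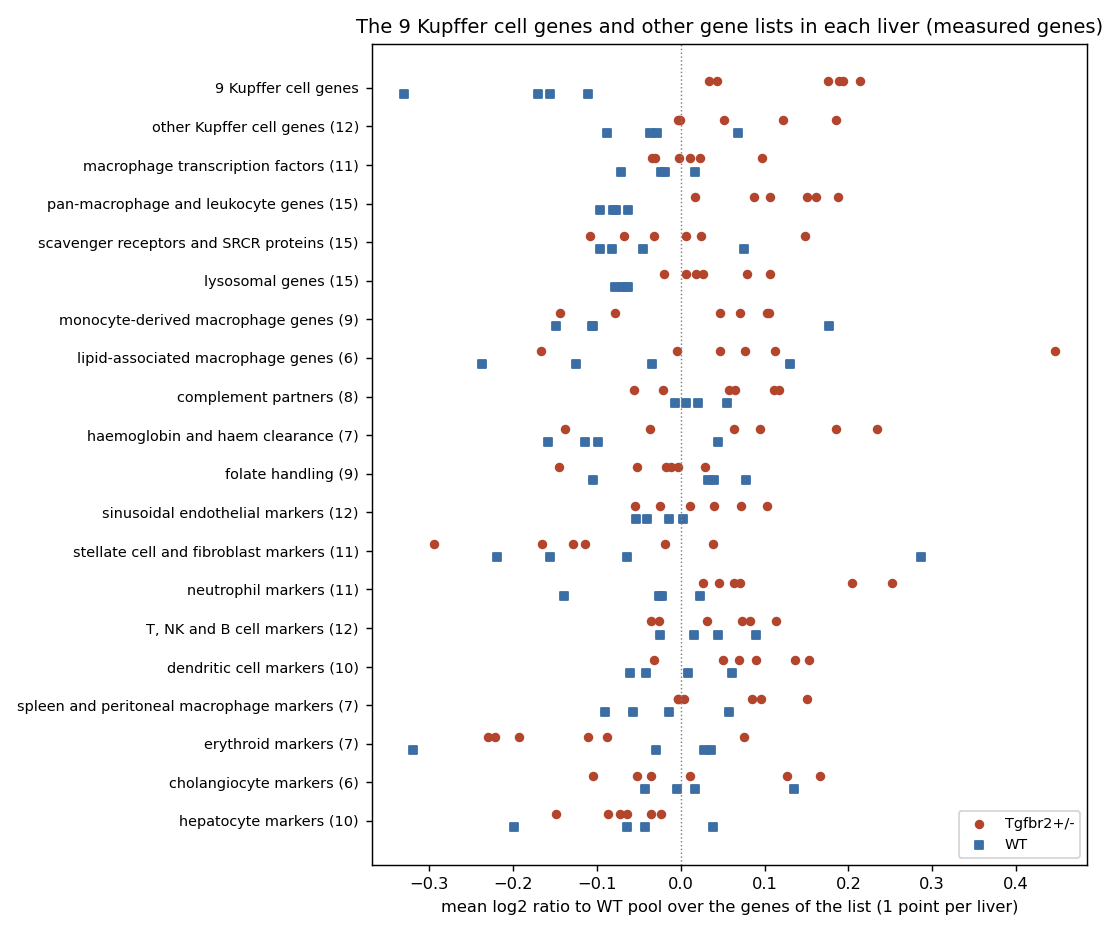
Mean log2 ratio over the WT pool of each gene list in each liver, Tgfbr2+/- as circles drawn above WT as squares, with the number of measured genes in brackets. The heterozygous livers lie above all WT livers for the 9 Kupffer cell genes, for the genes of macrophages and leukocytes at large, for lysosomal genes and for neutrophil markers. The 9 genes were chosen on this contrast, so their separation is no separate result. For neutrophil markers the lowest heterozygous mean was 0.026 and the highest WT mean 0.022, and 0 of the 11 genes separated the groups alone.

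Markers of the other cells a liver sample can hold were set beside these. Over all genes, 52.6% were positive, 2.97% were higher at an unadjusted p under 0.05, and none passed limma's adjusted p. Neutrophil markers had 10 of 11 positive and a median of 0.07, and the list mean was 0.03 to 0.25 in heterozygous livers against -0.14 to 0.02 in WT livers. S100a9 (0.79 ± 0.18), S100a8 (0.33 ± 0.10) and Mpo (0.12 ± 0.05) were higher at an unadjusted p under 0.05. Genes of monocyte-derived macrophages had 3 of 9 positive and a median of -0.01, with Plac8 (0.51 ± 0.12) and Ly6c1 (0.26 ± 0.10) higher at that level, and list means of -0.14 to 0.11 in heterozygous livers against -0.15 to 0.18 in WT livers. Genes of lipid-associated macrophages had 6 of 6 positive and a median of 0.13, none of them at that level. Dendritic cell markers had 7 of 10 positive and a median of 0.06, with Siglech (0.32 ± 0.12) and Cd83 (0.21 ± 0.09). Sinusoidal endothelial markers had 8 of 12 and 0.02, with Clec4g (0.27 ± 0.08) and Fcgr2b (0.36 ± 0.11). Clec4g was higher in all 6 heterozygous livers than in all 4 WT livers, as were 0.726% of all genes. Stab2 (-0.08 ± 0.04), also in the list of scavenger receptors, was lower in all 6, as were 0.354% of all genes. Spleen and peritoneal macrophage markers had 4 of 7 positive and a median of 0.09, with Icam2 (0.24 ± 0.09), and erythroid markers 2 of 7 and -0.01, with Alas2 (0.15 ± 0.05). For T, NK and B cells (6 of 12, 0.01), stellate cells and fibroblasts (5 of 11, -0.03), cholangiocytes (1 of 6, -0.01) and hepatocytes (6 of 10, 0.03) no gene was at an unadjusted p under 0.05. Ratios give no level, so no marker can be called absent. The part of neutrophils and other leukocytes in the differences of the 6 genes was not tested.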

How the data were processed

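The authors deposited 1 value per probe and liver, taken here as a log10 ratio of liver and WT pool. The log10 base was inferred, since 8 values lie at exactly 2 or -2 and none beyond. RNA extraction was by Qiagen RNeasy columns and amplification by an automated MessageAmp II aminoallyl workflow, with Cy3 on the first channel and Cy5 on the second, per the labels' protocols. Dye swaps were involved, per the series' design text. How they entered a column, the scanner software, background correction and normalization are not given in the sources used here. Base and the direction stay unknown from the labels, and no intensity was available, so dim spots could not be removed.

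A factor of 3.32 turned these into log2 ratios. Of 23438 probes, 17726 carry 1 gene symbol in the platform annotation and were averaged to 16383 genes. All 6 Tgfbr2+/- and 4 WT libraries, grouped by title, were fitted with limma 3.58.1 (lmFit, eBayes, two-sided) in R 4.3.3, Benjamini-Hochberg adjusted over all genes. The fit was tested on simulated data. Pair correlations used exact permutation in Python 3.11.15 with numpy 2.4.6. The number of arrays limits the precision.

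The genes and 19 other lists were chosen with earlier results of these data known. The lists hold none of the 9 genes. From each, the text names those of the 4 genes of smallest p that had an unadjusted p under 0.05, and Timd4, Clec1b and Cd207 as Kupffer cell markers. Stab2, at an unadjusted limma p of 0.052, was named after its values were seen. Genes most like a pattern were the 8 or 3 highest by Pearson's r. Amino acid sequences were not used here. Alternatives were leaving out each library, turning 2 columns, centring, quantile normalization, array weights, a replicate block and the choice of probe.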

Additional observations from a re-analysis of the deposited data

Results flagged for a closer look

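Of 102 groups of livers examined for 51 named genes, 9 held a liver that stood apart from the others of its group by the gap to its neighbour relative to the range of the group (Dixon's 95% limit). Chance alone gives about 1 in 20. Of the Kupffer cell genes, Fcna was at -0.045 in Tgfbr2+/- replicate 6, below 0.24 to 0.34 in the other 5, and Cd163 was at -0.81 in WT replicate 4, below 0.21 to 0.40 in the other 3. Both are described above with their values in every liver. Among the genes most like the set, C1qc was at -0.021 in Tgfbr2+/- replicate 3 and Tyrobp at -0.22 in WT replicate 2. Dcst1, which followed Marco, was at 0.11 in Tgfbr2+/- replicate 6, and Adh6a, which followed Cd68, was at 0.14 in WT replicate 4. Msr1 was at -0.16 and Npc2 at 0.22 in Tgfbr2+/- replicate 5, and S100a9 was at 0.13 in WT replicate 4, where the other 3 WT livers lay at -0.52 to -0.45.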

How the results depend on the processing

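The differences of Vsig4, Clec4f, Cd5l, Folr2, Adgre1 and Fcna were positive in each of 17 alternatives, while Marco was negative in 14 of 17, Cd163 in 11 and Cd68 in 1. The median over the 9 genes was 0.41 to 0.50 when each liver was left out in turn, against 0.48 with all, 0.32 with WT replicate 1 turned in sign and 0.39 with Tgfbr2+/- replicate 5 turned. Genes past the adjusted threshold numbered 0 to 10 with a liver left out, the 10 without Tgfbr2+/- replicate 3, and 0 under the other alternatives. Genes at an unadjusted p under 0.05 numbered 582 to 1255, against 908 with all, the lowest without WT replicate 1, and 584 and 510 with WT replicate 1 or Tgfbr2+/- replicate 5 turned. With the replicate number as a block they numbered 1518, 0 passed the adjusted threshold and Marco differed by -0.43. Same-numbered livers correlated at 0.01 to 0.30 in their deviations, and 2 of 4 WT livers correlated best with their own number. These values do not settle whether livers of the same number share anything, which was not tested. The titles do not say that equal numbers are pairs, and they were not taken as pairs. Leaving livers out moved the median difference of the leukocyte list between 0.12 and 0.21, of the scavenger receptors between -0.033 and 0.044, of the lysosomal genes between 0.074 and 0.14, of the monocyte-derived macrophage genes between -0.040 and 0.096, of the stellate markers between -0.069 and 0.083 and of the hepatocyte markers between -0.066 and 0.076. With WT replicate 1 turned, the lysosomal median was 0.039, the monocyte-derived one 0.075 and the stellate one 0.074. With Tgfbr2+/- replicate 5 turned, the leukocyte median was 0.11 and the lysosomal one 0.056, and with the replicate block the lysosomal one was 0.062. The cause of these shifts was not tested. No pair of genes passed the adjusted threshold by Spearman's rho, with Tgfbr2+/- replicate 5 turned or as deviations over all 10 livers, and pairs were tested under no other alternative. With no intensities, nothing could be said of signal over background.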

Other observations

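2 Kupffer cell markers outside the set varied widely between heterozygous livers, and are given here as values, chosen after they were seen. Timd4 was at 0.04, 0.51, -0.08, -0.21, -0.02 and 0.66 in Tgfbr2+/- replicates 1 to 6, against -0.17, -0.11, -0.18 and 0.24 in WT replicates 1 to 4. Its highest livers, replicates 6 and 2, were also those with the highest Marco and Adgre1. Cd207 was at 1.29, 1.10, 0.34, -0.10, 0.69 and -0.17 in Tgfbr2+/- replicates 1 to 6, against -0.19, -0.26, 0.26 and -0.13 in WT replicates 1 to 4. Its 2 highest livers, replicates 1 and 2, were also those with the highest Vsig4. Replicate 5, the next highest in Cd207, was the lowest heterozygous liver in Vsig4.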
